A study of Mus musculus with 6 samples.

Results

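The genes described here are those that the deposited expression table places on the mitochondrial chromosome (mtDNA). They number 37 of the 54532 genes in the table: 13 mRNA genes, 2 rRNA genes and 22 tRNA genes. All 37 were kept, whatever their expression. The table assigns 28 of them to the plus strand and 9 to the minus strand, and the latter are 8 tRNAs and mt-Nd6.

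RNA-seq was performed on smooth muscle cells, which give the artery wall its tone, in 2 groups of 3 libraries from mouse cultures. Per the study's methods these were mouse aortic smooth muscle cells (MASMCs) digested from the abdominal aorta of wild-type mice and used after several passages, so the cells are a cultured, expanded population. Ad-Con cells received an adenoviral vector with a control plasmid and carry the genotype label WT. Ad-PDK4 cells received a vector meant to overexpress pyruvate dehydrogenase kinase 4. This kinase, PDK4, sits in mitochondria and blocks entry of pyruvate into the TCA cycle, and its overexpression is their genotype label. According to the study, both groups were then exposed to angiotensin II (Ang II), a vasoconstrictor peptide used in aneurysm models. The design asks how gene expression in Ang II-treated cells differs once PDK4 is overexpressed.

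The level of Pdk4 itself was checked first, and it went against the label. Pdk4 measured 9.50, 10.4 and 10.1 FPKM (fragments per kilobase of gene, scaled to the library size) in Ad-Con and 7.67, 7.40 and 7.38 FPKM in Ad-PDK4. It was therefore lower, at -0.42 ± 0.06 (log2 fold change ± SE, limma with Benjamini-Hochberg adjusted p = 0.0011). For this reason the second group is called the libraries labelled Ad-PDK4, and a direction below is a difference between labelled groups. The check is limited, since transcripts of a vector whose PDK4 sequence differed from the counted mouse exons would not appear in this row. The 6 libraries held 17588942 to 21861872 reads on genes, with no shift in depth between groups. Among smooth muscle markers Acta2 averaged 78.0 and 36.2 FPKM in Ad-Con and Ad-PDK4, whereas Myh11, Cnn1 and Tagln, which define contractile smooth muscle, had at most 10, 30 and 20 reads in a library. The summed level of 8 smooth muscle markers was 87.8 to 89.4 against 43.3 to 48.1 FPKM, most of it Acta2. Smtn, in the same list, averaged 8.32 and 8.44 FPKM. The sum of 3 fibroblast markers was 112 to 128 against 165 to 206 FPKM. Among these Dcn rose from a mean of 90.1 to 160.6, Lum fell from 7.46 to 3.31, and Pdgfra was at 20.5 and 19.9. The sum of 4 macrophage and leukocyte markers was 13.3 to 16.4 against 3.68 to 5.50 FPKM, most of it Cd68, with Ptprc at 0 reads. Csf1r went the other way, from a mean of 0.258 to 0.640 FPKM. The 3 endothelial markers summed to at most 0.152 FPKM. The part of these shifts in the mtDNA results was not tested.

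The mitochondrial chromosome is a small circle that encodes core subunits of the respiratory chain and of ATP synthase, together with the rRNAs and tRNAs of the mitochondrial ribosome. A dedicated polymerase copies each strand into long precursors that span many genes. The tRNAs that lie between the other genes are then cut out, which releases the mRNAs and rRNAs, so that genes with a shared promoter can still differ in level through processing and decay. In contractile cells the encoded proteins serve oxidative phosphorylation.

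The genes are packed with few or no bases between them. Coordinates are given on GRCm38, the build that the coordinates in the table match. On the same strand, the end of mt-Atp8 and the start of mt-Atp6, subunits of ATP synthase, overlap by 43 bases, and mt-Nd4l and mt-Nd4 overlap by 7 bases. On opposite strands, mt-Nd5 and mt-Nd6 overlap by 14 bases. The first of these overlaps is shown because a read that covers it lies on both genes. The overlap is in capitals, with the mitochondrial chromosome as reference (plus strand, MT:7912-7984).
mt-Atp8 and mt-Atp6: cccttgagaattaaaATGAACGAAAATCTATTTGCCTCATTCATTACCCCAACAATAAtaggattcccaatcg

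A further set of sequences is shown because these tRNAs were the ones that stood above or below the sum of the mtDNA mRNAs in the comparison relative to it, given further on. Each is the gene's own strand, 5′ to 3′, from GENCODE release 21, with the anticodon in capitals. The first 3, for tyrosine, cysteine and asparagine, lie next to each other on the minus strand between mt-Nd2 and mt-Co1 (MT:5260-5326, MT:5192-5257 and MT:5089-5159). A gap of 32 bases separates mt-Tc from mt-Tn.
mt-Ty: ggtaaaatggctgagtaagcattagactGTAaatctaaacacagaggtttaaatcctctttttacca
mt-Tc: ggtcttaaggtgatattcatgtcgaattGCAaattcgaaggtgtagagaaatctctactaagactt
mt-Tn: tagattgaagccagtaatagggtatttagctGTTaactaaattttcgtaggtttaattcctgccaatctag

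The other tRNAs in this set are mt-Te for glutamate on the minus strand, next to mt-Nd6 (MT:14071-14139), and mt-Tl2 for leucine (MT:11671-11741) and mt-Ts2 for serine (MT:11613-11671) on the plus strand between mt-Nd4 and mt-Nd5.
mt-Te: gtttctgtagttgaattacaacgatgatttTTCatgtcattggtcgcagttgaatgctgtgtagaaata
mt-Tl2: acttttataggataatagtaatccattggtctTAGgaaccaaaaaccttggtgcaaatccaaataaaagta
mt-Ts2: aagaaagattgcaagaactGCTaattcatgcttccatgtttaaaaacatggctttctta

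As a whole, RNA from the mitochondrial chromosome made up a smaller part of each library labelled Ad-PDK4 than of any Ad-Con library. Reads on the 37 genes were 2.69%, 2.59% and 2.76% of all reads in Ad-Con and 1.35%, 1.11% and 1.53% in Ad-PDK4. The groups did not overlap, and the ratio of the means was 0.496 (2.68% ± 0.0884 against 1.33% ± 0.212, SD, n = 3 each). A lower share in bulk RNA can come, among other ways, from fewer copies of mtDNA per cell or from less RNA per copy. Shares of RNA alone cannot tell such cases apart, and none of them was tested. No test was run on this sum.

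Of the 37 genes, 32 had a mean of at least 0.5 FPKM and were tested. All 32 had a log2 fold change below 0. limma called 22 of them lower and 0 higher at an adjusted p below 0.05, limma-voom on reads called 23 lower and 0 higher, and with no value above 0 none was higher at an unadjusted p either. For comparison, 20.8% of all 13423 tested genes were called lower and 21.8% higher. With a fold change of at least 2 as a further limit 19 were lower, against 2.68% of all genes tested. The 2 groups did not overlap for 24 of the 32, all lower in Ad-PDK4, compared with 26.5% of all genes tested. By class, 11 of 13 mRNAs, 1 of 2 rRNAs and 10 of 17 tested tRNAs were called lower. The median log2 fold change was -1.22 for the mRNAs and -1.05 for the tested tRNAs, and -0.00 over all genes tested. Of the 22 calls, 16 were made in all 18 alternative analyses, and the others, mt-Atp8, mt-Nd3, mt-Ti, mt-Th, mt-Tt and mt-Tr, were lost in at least 1.

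**Figure D1:**
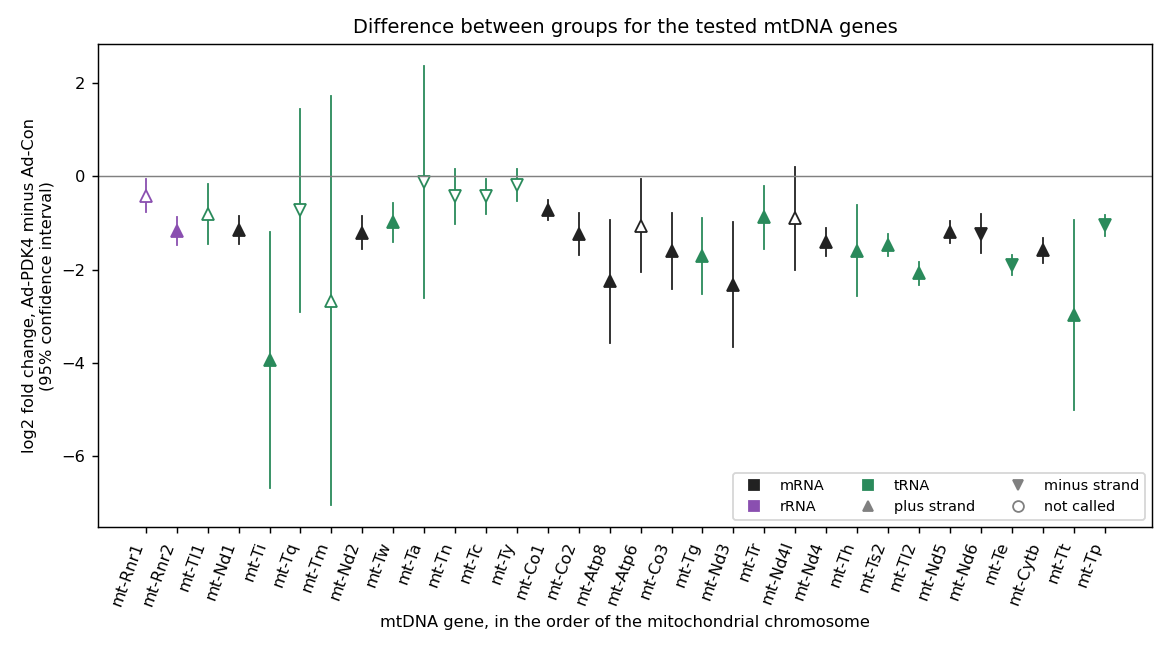
Log2 fold change (Ad-PDK4 minus Ad-Con, vertical axis) with 95% confidence interval for the 32 tested mtDNA genes, in chromosome order. Filled symbols are the 22 genes called by limma, open symbols the 10 that were not, triangles point up for the plus strand and down for the minus strand, and all 32 values lie below 0.

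Complex I, the NADH dehydrogenase that feeds electrons into the chain, takes 7 of its subunits from mtDNA. Of these 7, 6 were called lower, compared with 20.8% of all genes tested. mt-Nd1 measured 2992, 2974 and 3133 FPKM in Ad-Con and 1382, 1126 and 1648 FPKM in Ad-PDK4. The groups were far apart relative to their spread, at -1.15 ± 0.13 on the log2 scale (SE; limma adjusted p = 5.1e-04). mt-Nd2 gave 2139, 2126 and 2281 against 991, 749 and 1135 FPKM, and mt-Nd5, which encodes a large proton-pumping subunit, gave 1395, 1376 and 1433 against 633, 517 and 701 FPKM. Their log2 fold changes were close to that of mt-Nd1, at -1.21 ± 0.15 and -1.19 ± 0.10. A slightly larger difference was seen for mt-Nd4, with 1452, 1411 and 1512 against 568, 446 and 647 FPKM (-1.41 ± 0.13, limma adjusted p = 1.8e-04). mt-Nd6, the only mRNA of the minus strand, gave 849, 857 and 985 against 367, 310.2 and 493 FPKM (-1.22 ± 0.17).

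The 2 remaining complex I mRNAs had far lower values. mt-Nd3 had 994, 225 and 335 reads in Ad-Con and 65, 79 and 125 reads in Ad-PDK4. The Ad-Con libraries themselves differed widely, and the difference of -2.32 ± 0.53 (limma adjusted p = 0.019) became -1.77 without Ad-Con replicate 1, still past the threshold. Its call was lost without Ad-PDK4 replicate 1 (adjusted p = 0.065) or replicate 2 (adjusted p = 0.051) and in limma-voom on reads (adjusted p = 0.11). mt-Nd4l had 106, 97 and 89 against 101, 33 and 45 reads, so that 1 Ad-PDK4 library lay within the Ad-Con range. It was not called (-0.90 ± 0.44, limma adjusted p = 0.16), although without that library, Ad-PDK4 replicate 1, it was (-1.40, adjusted p = 4.6e-05).

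mt-Cytb encodes cytochrome b, the only mtDNA-encoded subunit of complex III. Among the mRNAs with over 1000 reads in every library it had the largest difference. It measured 3642, 3623 and 3813 FPKM in Ad-Con and 1302, 1016 and 1401 FPKM in Ad-PDK4, which is -1.59 ± 0.11 on the log2 scale (limma adjusted p = 4.7e-05). Complex IV, the terminal oxidase, has 3 mtDNA-encoded subunits. All 3 were called lower (20.8% of all genes tested were), but to different degrees. The mRNA of its catalytic subunit, mt-Co1, had the highest level of the 37 genes and the smallest difference of the 13 mRNAs. Its values were 7120.4, 6754 and 7099 against 4273, 3707 and 4817 FPKM, or -0.72 ± 0.09 on the log2 scale (limma adjusted p = 4.9e-04). mt-Co2, which encodes the subunit that takes electrons from cytochrome c, gave 59.3, 89.4 and 68.0 against 30.2, 25.7 and 35.5 FPKM (-1.23 ± 0.18). mt-Co3 gave 26.3, 54.4 and 31.7 against 9.95, 10.3 and 15.5 FPKM (-1.60 ± 0.32).

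ATP synthase takes 2 subunits from mtDNA, and they share the overlapping bases printed above. mt-Atp8 rested on few reads, 18, 31 and 65 against 8, 5 and 8. The groups did not overlap, but Ad-Con spread over more than the difference between its lowest library and Ad-PDK4 (-2.25 ± 0.52, limma adjusted p = 0.020). Leaving out Ad-Con replicate 2 (adjusted p = 0.056) or Ad-PDK4 replicate 1, 2 or 3 (adjusted p = 0.050, 0.060 and 0.057) ended its call. mt-Atp6 gave 44.5, 53.7 and 70.6 FPKM against 20.5, 46.8 and 19.5 FPKM. The high Ad-PDK4 replicate 2 placed the groups in overlap, and the gene was not called (-1.06 ± 0.40, limma adjusted p = 0.086). Without that library it was (-1.46, adjusted p = 0.0048).

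**Figure D2:**
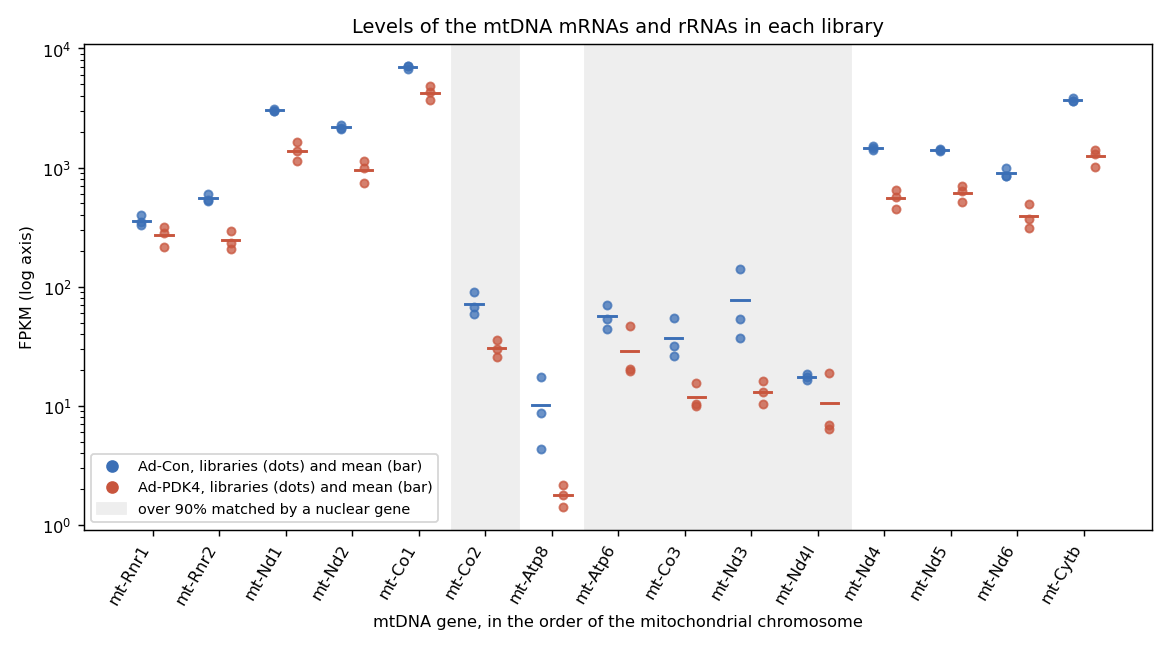
FPKM on a log axis of the 13 mRNAs and 2 rRNAs in each library, in chromosome order, with dots for the 3 libraries of each group and bars for their means. The 5 genes on grey are matched over more than 90% of their length by an annotated nuclear gene, and their means over all libraries are at most 51.4 FPKM.

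Of the 2 rRNAs of the mitochondrial ribosome, 1 was called lower. The labels name an mRNA-Seq kit, and selection of RNA by its poly(A) tail may lower rRNA. Their levels are therefore read only as differences between groups, and the part of such selection in these differences was not tested. mt-Rnr2, the large-subunit rRNA, measured 524, 532 and 599 FPKM in Ad-Con and 234, 208 and 294 FPKM in Ad-PDK4 (-1.18 ± 0.13, limma adjusted p = 4.2e-04). mt-Rnr1, the small-subunit rRNA, measured 331, 349 and 397 against 282, 216 and 319 FPKM. Its groups did not overlap, but their nearest libraries were close, and the gene was not called (-0.41 ± 0.15, 95% confidence interval -0.77 to -0.05, limma adjusted p = 0.066). It passed the threshold without Ad-PDK4 replicate 3 (-0.54, adjusted p = 0.026). The ratio of mt-Rnr1 to mt-Rnr2, in FPKM, was 0.632, 0.655 and 0.662 in Ad-Con, whereas the lowest Ad-PDK4 library was at 1.04 (means 0.650 ± 0.0156 and 1.11 ± 0.0862, SD, n = 3 each). The 2 rRNAs lie next to each other on the plus strand, separated only by mt-Tv, which had 1 read in 1 library. Together they made up 4.30%, 4.52% and 4.82% of mtDNA reads in Ad-Con and 4.80%, 4.81% and 5.09% in Ad-PDK4, ranges that overlap. In summed FPKM, which weights the shorter genes more, the ranges were separate, at 3.82%, 4.01% and 4.26% against 4.69%, 4.59% and 4.85%.

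The tRNA genes, which are shorter than the sequenced reads, took 0.415% to 0.511% of mtDNA reads. Together they had 2249, 2035 and 2304 reads in Ad-Con and 1081, 994 and 1632 reads in Ad-PDK4. Scaled to the total reads of each library, the ratio between the group means was 0.540, and the groups did not overlap. Between 15 and 19 of the 22 genes had a read in a given library. Because such short genes adjoin longer ones, and because the strand setting of the counting is not given in the sources used here, a read on a tRNA gene can be part of a precursor or of the opposite strand. For the 15 tRNAs with at least 10 reads in some library the values follow. The remaining 7 had at most 9 reads, and 5 of them, mt-Tf, mt-Tv, mt-Tk, mt-Ts1 and mt-Td, had at most 1 read and were not tested. The other 2, mt-Tq (8, 2 and 9 against 4, 1 and 8 reads) and mt-Tm (0, 7 and 4 against 0, 0 and 1 reads), were tested and not called. mt-Tm was called only without Ad-Con replicate 1 (adjusted p = 0.020). mt-Tf and mt-Td had 0 reads in every library, a count that allows up to 3 reads.

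Among plus-strand tRNAs, 8 of the 10 tested were called lower, compared with 20.8% of all genes tested. The median log2 fold change of the 10 was -1.65. mt-Tl2, for leucine, had 138, 114 and 132 reads in Ad-Con and 32, 31 and 30 reads in Ad-PDK4 (-2.08 ± 0.11, limma adjusted p = 6.5e-06). Its neighbour mt-Ts2 had 41, 32 and 40 against 14, 11 and 17 reads (-1.47 ± 0.10, limma adjusted p = 2.1e-05), and mt-Th, for histidine, had 32, 16 and 33 against 10, 5 and 13 reads (-1.59 ± 0.39). The mt-Th call was lost without Ad-Con replicate 1 or 3 or Ad-PDK4 replicate 1 (adjusted p = 0.075, 0.071 and 0.051). These 3 lie in a row between mt-Nd4 and mt-Nd5, which had smaller differences of -1.41 and -1.19. mt-Tw, for tryptophan, had 117, 121 and 161 against 58, 62 and 88 reads (-0.99 ± 0.17), and mt-Tg, for glycine, had 40, 15 and 25 against 8, 8 and 7 reads (-1.71 ± 0.33). In all of these the groups were separate.

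Fewer reads stood behind the other plus-strand tRNAs. mt-Tt, for threonine, had 18, 14 and 20 against 1, 1 and 9 reads (limma adjusted p = 0.033), and mt-Tr, for arginine, had 10, 14 and 9 against 6, 4 and 9 reads (limma adjusted p = 0.048). Neither call was kept when any 1 library other than Ad-PDK4 replicate 3 was omitted (adjusted p from 0.073 to 0.097 for mt-Tt and from 0.065 to 0.10 for mt-Tr), and the mt-Tr call was lost in 12 of 18 alternatives. mt-Ti, for isoleucine, had 10, 1 and 5 against 0, 0 and 1 reads. Its call (limma adjusted p = 0.035) rested on 16 reads against 1, for which the ratio after scaling was 0.0606 with an exact 95% counting interval of 0.00145 to 0.390. It was lost without Ad-Con replicate 1 or 3 or Ad-PDK4 replicate 1 or 2 (adjusted p = 0.066, 0.088, 0.12 and 0.10). mt-Tl1, for leucine and next to mt-Rnr2, had 173, 142 and 166 against 60, 92 and 147 reads and missed the threshold (-0.81 ± 0.26, limma adjusted p = 0.051). Without Ad-PDK4 replicate 1 or 3 it passed (adjusted p = 0.010 and 0.018).

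Of the minus-strand tRNAs 2 of the 7 tested were called lower, a share near the 20.8% of all genes tested, and the median log2 fold change was -0.43. mt-Te had 173, 139 and 185 reads in Ad-Con and 43, 43 and 50 in Ad-PDK4 (-1.90 ± 0.09, limma adjusted p = 3.1e-06), and mt-Tp, for proline and the tRNA with the most reads, had 861, 672 and 839 against 349, 332 and 512 (-1.05 ± 0.10, limma adjusted p = 1.2e-04). The 3 neighbours printed first were not called. mt-Tc had 380, 441 and 406 against 290, 244 and 432 reads (-0.42 ± 0.15, limma adjusted p = 0.068). mt-Tn had 165, 227 and 209 against 152, 108 and 213 reads (-0.43 ± 0.24, 95% confidence interval -1.02 to 0.16), and mt-Ty had 74, 63 and 60 against 49, 49 and 87 reads (-0.18 ± 0.14, 95% confidence interval -0.52 to 0.16). In FPKM the groups overlapped for each of these 3. mt-Tc was called without Ad-Con replicate 1 or Ad-PDK4 replicate 3 (adjusted p = 0.035 and 0.023) and mt-Ty without the latter (adjusted p = 0.0042). mt-Ta, for alanine, had 9, 13 and 1 against 5, 3 and 7 reads, and its direction reversed in 3 of the 6 analyses that left out a library. No test compared the strands.

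To ask which genes departed from the mtDNA mRNAs as a whole, every library was divided by its summed FPKM over the 13 mRNAs and the fit was repeated. This sum was 19882, 19383 and 20514 FPKM in Ad-Con and 9608, 7976 and 10936 FPKM in Ad-PDK4. Since nuclear genes are shifted by this division (median +1.05 on the log2 scale), 87.0% of all genes were called higher and 0.819% lower, and only the mtDNA rows are read. limma called 5 of the 32 higher and 5 lower than the mRNA sum. The adjustment ran over all 13423 genes, most of them shifted, so adjusted p-values here lie close to unadjusted ones. For mt-Nd4 the limma p was 0.035 and the adjusted p 0.040. No adjustment over the mtDNA genes alone was made.

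Higher than the sum were mt-Rnr1 (0.67 ± 0.15, limma adjusted p = 4.2e-04), mt-Ty (0.90 ± 0.15, adjusted p = 3.6e-05), mt-Tc (0.65 ± 0.16, adjusted p = 8.9e-04), mt-Tn (0.65 ± 0.18, adjusted p = 0.0022) and mt-Co1 (0.36 ± 0.15, adjusted p = 0.032). The first 4 of these were called in every analysis that left out a library. mt-Co1 lost its call without Ad-Con replicate 1, 2 or 3 or Ad-PDK4 replicate 1 (adjusted p = 0.10, 0.11, 0.15 and 0.13). Lower than the sum were mt-Tl2 (95% confidence interval -1.39 to -0.61, adjusted p = 7.1e-05), mt-Te (-0.82 ± 0.17, adjusted p = 1.9e-04), mt-Cytb (-0.51 ± 0.15, adjusted p = 0.0038), mt-Ts2 (-0.40 ± 0.15, adjusted p = 0.016) and mt-Nd4 (-0.33 ± 0.15, adjusted p = 0.040). mt-Nd4 lost its call without Ad-Con replicate 1, 2 or 3 or Ad-PDK4 replicate 1 (adjusted p = 0.14, 0.12, 0.16 and 0.14), and mt-Ts2 without Ad-Con replicate 1 or 3 (adjusted p = 0.072 and 0.11). Leaving out a library also added calls, so that 11 to 13 genes were called in place of 10. Over the 6 such fits 11 further genes were called at least once, among them mt-Ti and mt-Tg.

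The split depended on the reference. mt-Co1 alone held much of the sum, and with the other 12 mRNAs as reference 7 genes were higher and 2 lower. mt-Cytb (-0.27, adjusted p = 0.16), mt-Nd4 (-0.10) and mt-Ts2 (-0.16) were then no longer called, while mt-Tl2 and mt-Te were. After quantile normalization 4 were higher and 15 lower, and mt-Tn lost its call (0.40, adjusted p = 0.064). The ratio of mt-Co1 to mt-Cytb in FPKM needs no reference, and it was 1.95, 1.86 and 1.86 in Ad-Con and 3.28, 3.65 and 3.44 in Ad-PDK4. In the same way mt-Tc over mt-Tl2 was 2.96, 4.16 and 3.31 against 9.75, 8.47 and 15.5. The groups were separate in both ratios. Each pair sets a gene called higher than the sum over a gene called lower in these same libraries. The separation therefore follows in part from how the pairs were picked.

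**Figure D3:**
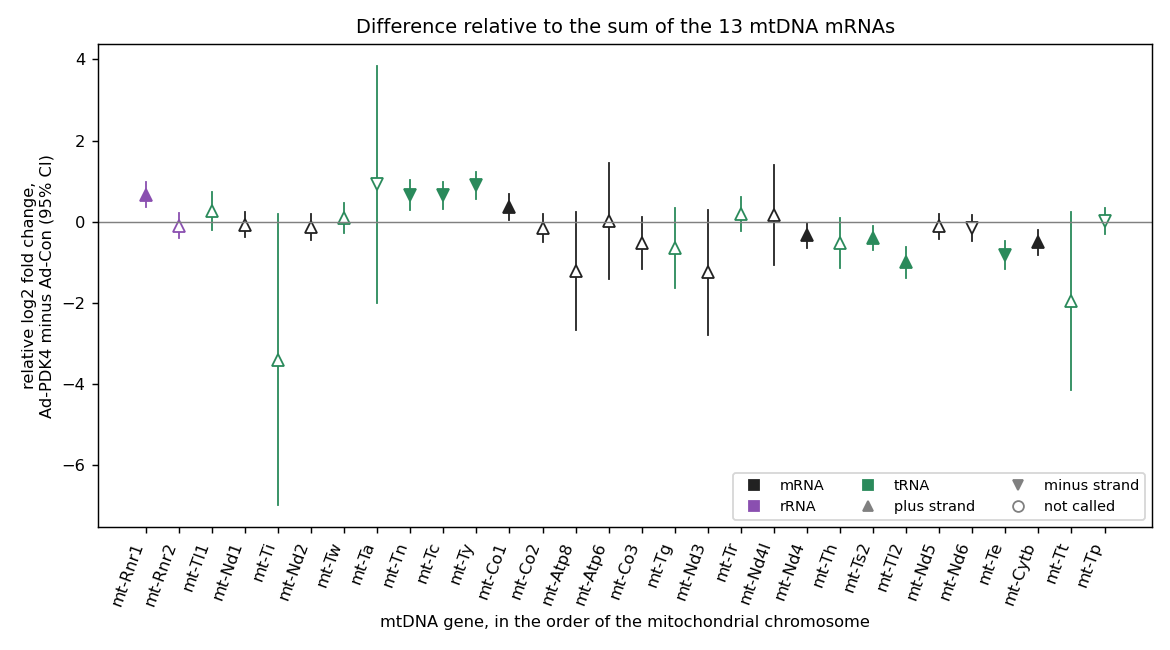
Log2 fold change relative to the summed FPKM of the 13 mRNAs (vertical axis, with 95% confidence interval) for the 30 tested mtDNA genes with at least 10 reads in a library, in chromosome order. Filled symbols are called genes, with mt-Rnr1, mt-Tn, mt-Tc, mt-Ty and mt-Co1 above 0 and mt-Nd4, mt-Ts2, mt-Tl2, mt-Te and mt-Cytb below 0.

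The make-up of the mtDNA reads also differed between the groups. mt-Co1 took 41.3%, 40.2% and 39.9% of them in Ad-Con and 49.6%, 51.5% and 49.2% in Ad-PDK4. mt-Cytb took 15.8% ± 0.159 against 10.7% ± 0.388 (SD, n = 3 each), and mt-Nd4 7.51%, 7.48% and 7.58% against 5.87%, 5.53% and 5.89%. mt-Rnr1 took 1.19%, 1.28% and 1.38% against 2.02%, 1.85% and 2.01%. For each of these 4 genes the groups were separate. The same held for mt-Nd1, mt-Nd2, mt-Nd5 and mt-Rnr2, which were not called relative to the sum. mt-Rnr2, for instance, took 3.11%, 3.24% and 3.45% in Ad-Con and 2.78%, 2.96% and 3.07% in Ad-PDK4. Separate shares are thus not particular to the called genes.

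**Figure D4:**
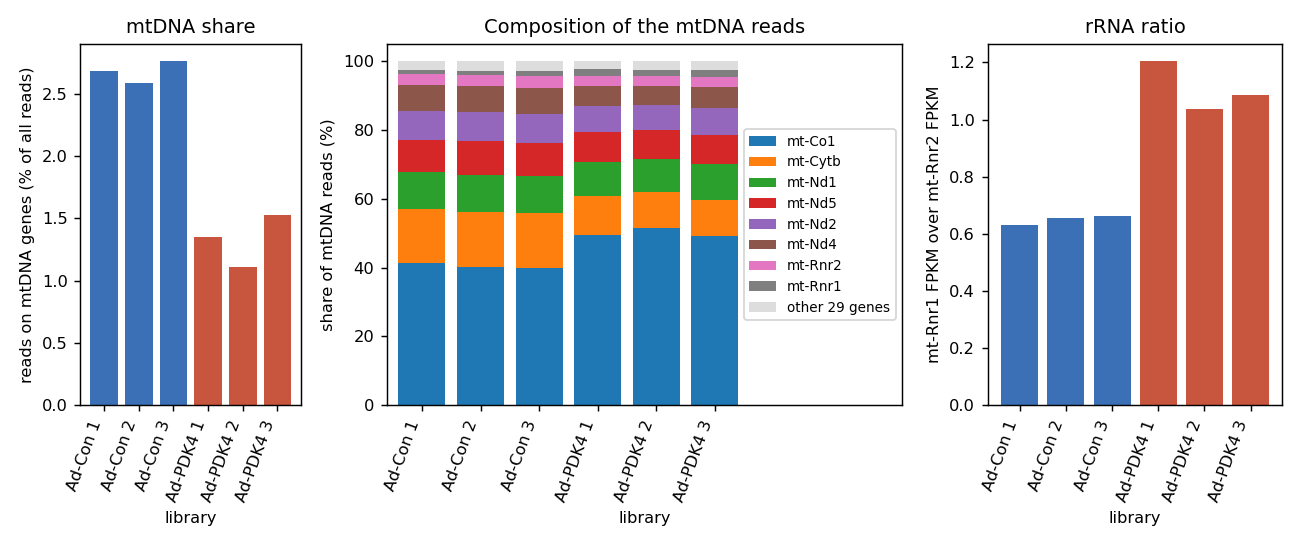
Per library, the reads on mtDNA genes in percent of all reads (left), the composition of these reads by gene in percent (middle) and mt-Rnr1 FPKM over mt-Rnr2 FPKM (right). The share lies between 1.11% and 1.53% in Ad-PDK4 and from 2.59% to 2.76% in Ad-Con, while mt-Co1 takes a larger and mt-Cytb a smaller part in Ad-PDK4.

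The strands could be compared among mRNAs through mt-Nd6. Its level was 4.46%, 4.63% and 5.04% of the summed FPKM of the 12 plus-strand mRNAs in Ad-Con and 3.98%, 4.05% and 4.72% in Ad-PDK4. The groups overlapped, and in the fit relative to the mRNA sum mt-Nd6 was not called (-0.15 ± 0.15, 95% confidence interval -0.46 to 0.17). Relative to mt-Nd5, with which it shares 14 bases, its FPKM ratio was 0.609, 0.623 and 0.687 against 0.581, 0.600 and 0.702. Without the strand setting, reads from the plus-strand precursor across mt-Nd6 cannot be told apart from its own.

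Libraries that were low or high in 1 gene tended to be so in others, most clearly in Ad-PDK4. In the 15 mtDNA genes with at least 100 reads in every library, Ad-PDK4 replicate 2 was the lowest of its group in 13 and Ad-PDK4 replicate 3 the highest in 14. In Ad-Con, replicate 3 was the highest in 10 and the lowest in 0, while replicates 1 and 2 were the lowest in 8 and 7. The coefficient of variation was larger in Ad-PDK4 than in Ad-Con for 12 of the 15 genes, with medians of 18.2% and 8.48%. Leaving out Ad-PDK4 replicate 3 moved the median log2 fold change of the 13 mRNAs to -1.35, and leaving out replicate 2 moved it to -1.12.

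The difference between groups was also set against position along the chromosome. This is a description of 9 genes, the 2 rRNAs and the 7 mRNAs mt-Nd1, mt-Nd2, mt-Co1, mt-Nd4, mt-Nd5, mt-Nd6 and mt-Cytb, which share the same libraries. Left out were mt-Atp8, with few reads, and the 5 mRNAs matched over more than 90% of their length by a nuclear gene. The mRNAs left out lie between mt-Co1 and mt-Nd4, with values from -0.90 (mt-Nd4l) to -2.32 (mt-Nd3), so the correlations do not cover this stretch. Pearson's r between log2 fold change and start position was -0.66 and Spearman's rho -0.78, compared with -0.20 and -0.15 between log2 fold change and log2 mean FPKM. The first gene of this range was mt-Rnr1 (-0.41) and the last mt-Cytb (-1.59), but the order between them was not even. mt-Co1 (-0.72) in the middle had a small difference, and mt-Nd5 (-1.19) and mt-Nd6 (-1.22) near the far end had values like those of mt-Rnr2 (-1.18) and mt-Nd2 (-1.21) near the start. The last gene of the chromosome, mt-Tp, is not among the 9 and was at -1.05.

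Nuclear copies of mtDNA bear on a stretch of these genes. On chromosome 1, minus strand, 7 annotated unprocessed pseudogenes (1:24611535-24616197) match the mtDNA from position 6390 to 11042 with at least 99.7% identity in each. The mtDNA stretch runs from the last part of mt-Co1 to the first part of mt-Nd4 and holds 11 whole mtDNA genes. Its mRNAs mt-Co2, mt-Atp6, mt-Co3, mt-Nd3 and mt-Nd4l are matched almost from end to end (over 90% in each), while 63.6% of mt-Nd4 and 31.3% of mt-Co1 is matched. The windows below show how little separates gene and copy, with the base that differs in capitals. In mt-Nd3 (MT:9459-9481) and Gm28438 (1:24613097-24613119) the single difference is T3C, and in mt-Co1 (MT:6390-6413) and Gm29216 (1:24616165-24616188) it is A1066T, counted from 1 at the first base of the mtDNA gene, whose base comes first.
mt-Nd3: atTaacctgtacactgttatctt
Gm28438: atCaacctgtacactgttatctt
mt-Co1: ggaAttgttttatccaactcatcc
Gm29216: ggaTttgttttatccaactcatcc

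The 5 mRNAs matched almost in full averaged 14.1 to 51.4 FPKM over all libraries. By contrast, mt-Nd4 and mt-Nd5, averaged 1006 and 1009 FPKM. How reads that match several places were counted is not given in the sources used here, so the levels of these genes and of the copies are uncertain. Reads assigned to a copy may come from mtDNA. The part of the copies in the differences of the mtDNA genes was not tested. Reads assigned to the 7 copies numbered 1607, 1675 and 1698 in Ad-Con and 669, 695 and 1054 in Ad-PDK4. Of the 7 copies, 6 were called lower, compared with 20.8% of all genes tested, and their median log2 fold change was -1.46 over the 7. Gm28661, the copy of mt-Co2, was at -1.25 (limma adjusted p = 0.0054) and mt-Co2 at -1.23. Gm10925, the copy of mt-Atp6, was at -1.09 (limma adjusted p = 0.0018) and mt-Atp6 at -1.06. The exception was Gm29216, the copy of mt-Co1, with 123, 127 and 166 against 99, 239 and 130 reads (0.04, limma adjusted p = 0.95). When reads of each mtDNA gene were summed with those of its copies, 23 genes were called lower in place of 22, mt-Atp6 being the addition (-1.03, adjusted p = 0.014). mt-Atp8 lies within the matched stretch but between the annotated copies, so no match was found for it among annotated transcripts. The same limit holds for the tRNAs within this stretch, mt-Ts1, mt-Td, mt-Tk, mt-Tg and mt-Tr. The mean of mt-Atp8, 5.98 FPKM, was below those of the 5 mRNAs matched almost in full. The other 7 mRNAs matched over less than 90% of their length were all called lower, with a median of -1.21.

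**Figure D5:**
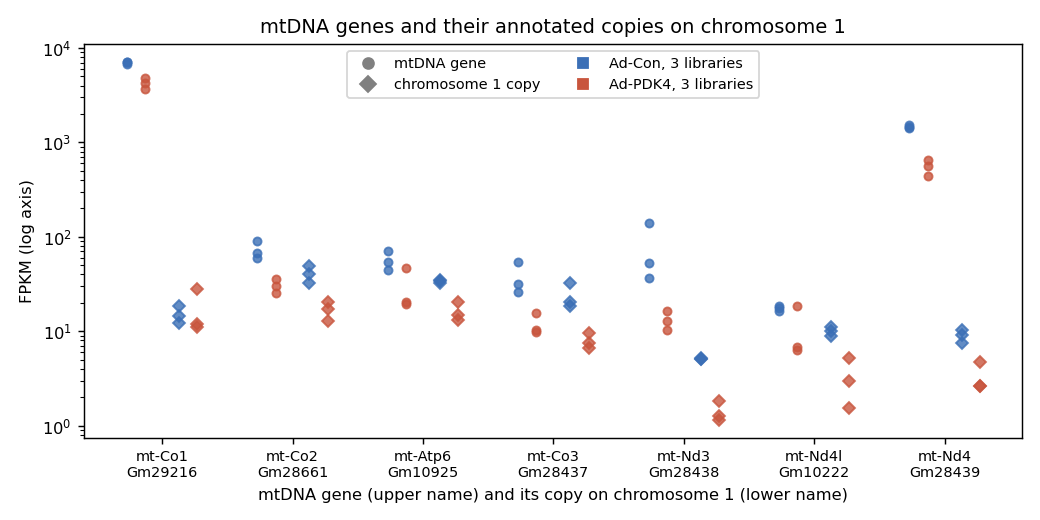
FPKM on a log axis of 7 mtDNA genes (circles) and their annotated copies on chromosome 1 (diamonds) in each library, blue for Ad-Con and red for Ad-PDK4. For 6 pairs the copy lies lower in Ad-PDK4, and the copy of mt-Co1, Gm29216, overlaps between groups.

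Nuclear genes that mostly copy, transcribe, process or degrade mtDNA and its RNA were compared as a list of 40, all of which were tested. The list also holds regulators such as Ppargc1a, Nrf1 and Gabpa. Of the 40, 6 were higher and 6 lower, shares below the 21.8% and 20.8% of all genes tested. None of the 40 reached a fold change of 2 in either direction. The median log2 fold change was -0.06. Polrmt, the mitochondrial RNA polymerase, was not called (0.26 ± 0.10, limma adjusted p = 0.083), and neither was Tfam, which packs mtDNA and starts transcription (0.17 ± 0.08, adjusted p = 0.14). Tfb2m, the partner of the polymerase at promoters, was lower (-0.53 ± 0.06, adjusted p = 3.1e-04). Lrpprc, which stabilises mtDNA-encoded mRNAs, was lower (-0.21 ± 0.07, adjusted p = 0.048). Pnpt1, an RNA-degrading enzyme of mitochondria, had the largest rise among called genes, from 8.55 to 15.6 FPKM (0.86 ± 0.09, adjusted p = 1.5e-04), followed among them by Pde12, which removes poly(A) tails (0.45 ± 0.08, adjusted p = 0.0030). The largest falls among called genes were in Ppargc1a, a coactivator of mitochondrial biogenesis, with 1.66 against 0.829 FPKM (-0.91 ± 0.16, adjusted p = 0.0030), and Mterf2, an mtDNA-binding factor (-0.72 ± 0.12, adjusted p = 0.0025).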

How the data were processed

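Per the labels, reads were processed with CASAVA 1.8, fastp, HISAT2 2.0.5, featureCounts 1.5.0-p3 and DESeq2 1.20.0. The labels give GRCm39 as the build, but gene coordinates matched GRCm38 (GENCODE release 21) for 98.3% of shared identifiers and for all 37 mtDNA genes. Library kits differ between sources (SMARTER mRNA-Seq in the labels, NEBNext Ultra RNA in the methods). The deposited table holds FPKM per gene and library, not pooled, which the authors scaled by size factors. Multiplied by gene length, 100% of non-zero values were whole multiples of 1 unit per library (tolerance 0.01), called reads here.

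Tests used limma 3.58.1 (R 4.3.3) on log2(FPKM + 0.1), with trend and robust moderation and no covariate, over the 13423 genes averaging 0.5 FPKM or more. All adjusted p-values are from limma with the Benjamini-Hochberg method, and every fold change is on this scale, which understates low genes. limma-voom on the recovered reads, 1 of the alternatives, called 3138 genes lower and 3221 higher. A second fit divided each library by its summed FPKM over the 13 mtDNA mRNAs. Its spread includes that of the sum. Nuclear matches were found with blastn 2.17.0 (identity of at least 95%, 50 bases or more) among GENCODE transcripts. Intervals of read counts cover counting error only. The study describes the libraries of each group as biological replicates, but the labels do not say that they came from separate cultures. The p-values measure the spread between these samples, which may be technical. Groups came from the treatment labels and numbers from the titles.

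The rule named all mtDNA genes (tRNAs with values from 10 reads), Pdk4, the most-read nuclear copies, 6 fixed factors with the largest rises and falls among 40, and the 5 genes most like the mtDNA share. Members, lists and tests were chosen with earlier results of these data known. The marker lists and the list of factors were written from general knowledge.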

Additional observations from a re-analysis of the deposited data

How the results depend on the processing

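The 18 alternatives changed the pseudocount, the filter, the scaling, the variance model, the test or the libraries. The number of mtDNA genes called lower, 22 in the chosen analysis, stayed between 18 and 25 under all of them, and none called an mtDNA gene higher. It was 18 when Ad-Con 3, Ad-PDK4 1 or Ad-PDK4 2 was left out, and 25 when Ad-PDK4 3 was. The median log2 fold change of the 13 mRNAs ranged from -1.35 to -1.12 when a library was left out. Over single genes and settings, 519 of 572 values kept direction and side of the threshold, 33 lost and 17 gained the call, and 3 reversed. All 3 were mt-Ta, never called, which ran from -1.19 to 0.60 when a library was left out (0.23, 0.60 and 0.13 when that was Ad-Con 1, Ad-Con 2 or Ad-PDK4 2).

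For genes relative to the mRNA sum, 10 calls became 19 after quantile normalization (15 lower and 4 higher). The rRNA share of mtDNA, with a ratio of 1.08 between groups in reads, was 1.17 in summed FPKM. Causes were not tested. Leaving out a library kept the ratio of mtDNA shares between 0.458 and 0.537 and that of tRNA reads between 0.493 and 0.570.

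The replicate numbers did not pair the libraries (correlations of same-numbered deviations -0.05, -0.03 and -0.00). With the replicate block 22 mtDNA genes were called lower, mt-Rnr1 (adjusted p = 0.023) and mt-Tq (adjusted p = 0.0064) being gained and mt-Nd3 (adjusted p = 0.056) and mt-Tr (adjusted p = 0.14) lost, and relative to the mRNA sum 10 were lower and 5 higher.

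For mt-Nd6 relative to the other mRNAs, recovered reads in place of FPKM were chosen as an alternative after the data had been seen (ratio 0.876 against 0.901). Summed FPKM, listed as an alternative there, is the chosen unit. Leaving out matched genes gave no other value for tRNAs, none of which was matched by an annotated nuclear gene. That search covered annotated transcripts only. It therefore does not show whether mt-Ts1, mt-Td, mt-Tk, mt-Tg and mt-Tr, which lie within the stretch matched on chromosome 1, have copies there. Few reads limit mt-Atp8 and the tRNAs, and 3 libraries per group limit all tests.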

Other observations

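Of the 7703 nuclear genes with a mean of at least 5 FPKM, those whose log2 levels over the 6 libraries followed the mtDNA share of reads most closely were Snx24, Pcmtd1, Anxa5, Serpinb6a and Mfsd1. Their log2 fold changes ran from -0.58 for Pcmtd1 to -0.20 for Anxa5, a direction that follows from how they were picked. As many as 1044 of the 7703 had a Pearson's r over 0.9 with this share, which itself differs between the groups, so the ranking singles out little.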
